A study of Mus musculus with 12 samples.

Results

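ASTL61 and NSCL61 are mouse lines carrying an oncogenic HRas, HRasL61, that were grown from astrocytes and from neural stem cells of the same embryonic source. The comparison rests on 4 of the 12 arrays of the series, 2 titled ASTL61 and 2 titled NSCL61. Every gene with a probe set of a single gene symbol was considered, each through its brightest probe set on average across all 12 arrays. This gave 18194 genes, of which 12788 were tested because at least 1 of the 6 groups averaged above 5.183, the median of all log2 signals. Values are log2 array signals, so a difference of 1 is a 2-fold difference.

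All cells came from p53-/- BL6 embryos, the stem cells being taken from the telencephalon at embryonic day 14.5. To make ASTL61, astrocytes (AST) obtained by keeping stem cells in medium with 10% FCS for 3 weeks were electroporated with pCMS-EGFP-HRasL61 and pBabe-neo, selected with neomycin at 0.5 mg/ml, and GFP-positive cells were sorted. NSCL61 was made in the same way from neural stem cells (NSC) grown without serum as floating spheres with bFGF, PDGF and forskolin. The AST and NSC arrays, 2 of each, measured the p53-/- parents, for which electroporation, selection and sorting are not stated. OPC, oligodendrocyte precursors, and their line OPCL61 entered the fit for the estimate of spread and are named only where they bear on a gene. Each line is a sorted population, and ASTL61 and NSCL61 differ in cell of origin and in culture history together, which cannot be told apart. Nothing in the labels says that replicate arrays came from separate cultures, so p-values measure the spread between these arrays, which may be technical.

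Ras proteins are GTP-binding switches that carry signals from growth factor receptors to the Raf, MEK and ERK kinases, and mutations at codon 61 keep them in the active form. Active ERK induces its own brakes, among them the Sprouty and Spred proteins and the dual-specificity phosphatases. Loss of p53 with active Ras is a classical route to transformation of cultured cells. Astrocytes in serum can take on a flat, matrix-rich shape, whereas neural stem cells are known for Sox2, nestin and prominin-1 (gene Prom1, the antigen CD133).

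The labels were set against marker genes before the lines were compared. Gfap, the intermediate filament that defines astrocytes, read 5.31 and 5.36 in ASTL61, against 5.55 and 5.44 in NSCL61, and 5.42 and 5.73 in AST. These levels lie close to the array median, as do those of Aqp4, Aldh1l1, Slc1a2 and S100b, whose signals stayed at or under 5.24 in every ASTL61, NSCL61 and AST array. Sox2, a regulator of neural stem cell identity, read 10.17 and 10.53 in ASTL61 and 11.84 and 11.66 in NSCL61, while the arrays labelled NSC read 4.41 and 6.79. The arrays labelled NSC also carried fibroblast genes, with Thy1 at 10.34 and 10.74 and Col1a1 at 12.61 and 12.93. The mean log2 signal of 5 fibroblast and pericyte markers was 9.04 and 9.31 in ASTL61, 4.82 and 4.63 in NSCL61, 8.67 and 8.52 in AST, and 11.12 and 10.68 in the arrays labelled NSC. Of these 5, 4 averaged above the array median in ASTL61 and 3 in AST. Acta2, Col1a1 and Pdgfrb were high in both, whereas Thy1 read 4.92 and 4.45 in ASTL61 and 3.81 and 4.01 in AST. Rgs5 read 4.75 and 7.21 in ASTL61 and 4.12 and 4.19 in AST. Of 8 astrocyte markers measured, 4 averaged above the array median in ASTL61, 5 in AST, 4 in NSCL61 and 4 in the arrays labelled NSC. Gja1 read 11.84 and 11.51 in ASTL61, 11.80 and 11.67 in AST, and 11.53 and 11.81 in NSCL61. Slc1a3 read 7.08 and 7.02 in ASTL61, 6.82 and 6.34 in AST, and 6.07 and 5.98 in NSCL61. Sox9 read 7.09 and 7.81 in ASTL61, 6.65 and 6.58 in AST, and 8.54 and 8.25 in NSCL61. In the arrays labelled NSC, Gja1 read 12.1 and 12.17, Slc1a3 6.44 and 8.05, and Sox9 7.88 and 7.83. Astrocyte and fibroblast markers both gave mixed levels in ASTL61 and AST, which are used below as labels and not as evidence of cell type. Every statement about NSC concerns the arrays labelled NSC, and what fibroblast-like cells contributed to them was not tested.

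Replicate arrays were not equally close in all groups. Over the genes tested, ASTL61 replicate 1 correlated with the AST arrays at 0.994 and 0.987 and with ASTL61 replicate 2 at 0.984, whereas the 2 NSCL61 arrays correlated at 0.996, the 2 OPCL61 arrays at 0.98 and the 2 arrays labelled NSC at 0.9796. Only 3 genes passed between ASTL61 and AST in limma (0.0235% of those tested), and 939 had an unadjusted p under 0.05. The 3 were the chemokines Cxcl5 and Cxcl3 and the chemokine-scavenging receptor Ackr3, all higher in ASTL61. Calls of named genes that were lost on leaving out 1 of the 4 line arrays are given beside the gene or at the end of its paragraph. Array medians agreed within 0.0534, and the difference between 3' and 5' signals of the Gapdh control stayed between -0.195 and -0.115 on the 4 line arrays. The 5' signal of the 18S control was uneven, at 10.292 and 8.721 in ASTL61 and 8.06 and 11.665 in NSCL61.

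ASTL61 and NSCL61 differed in 4182 of 12788 genes (32.7%) at a Benjamini-Hochberg adjusted p under 0.05 in limma. Of these, 2065 were higher in ASTL61 (16.1% of genes tested) and 2117 were lower (16.6%). These shares are the background for every gene list count below. A difference of at least 2-fold was seen for 1691 (13.2%), 765 of them higher and 926 lower. The 14 genes higher in ASTL61 by the most were Lox, Bgn, Col1a2, Col1a1, Acta2, Mgp, Cyp7b1, Col5a2, Pdgfrb, Fgf7, Ptx3, Cd34, Ccdc80 and Cxcl12. The 14 lower by the most were Il5ra, Pcdh8, St8sia4, Nefl, Nrcam, Serpinb9g, Qrfpr, Bex4, Serpinb11, Cd93, Chrna1, Klhl4, Fndc3c1 and Calcb.

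**Figure D1:**
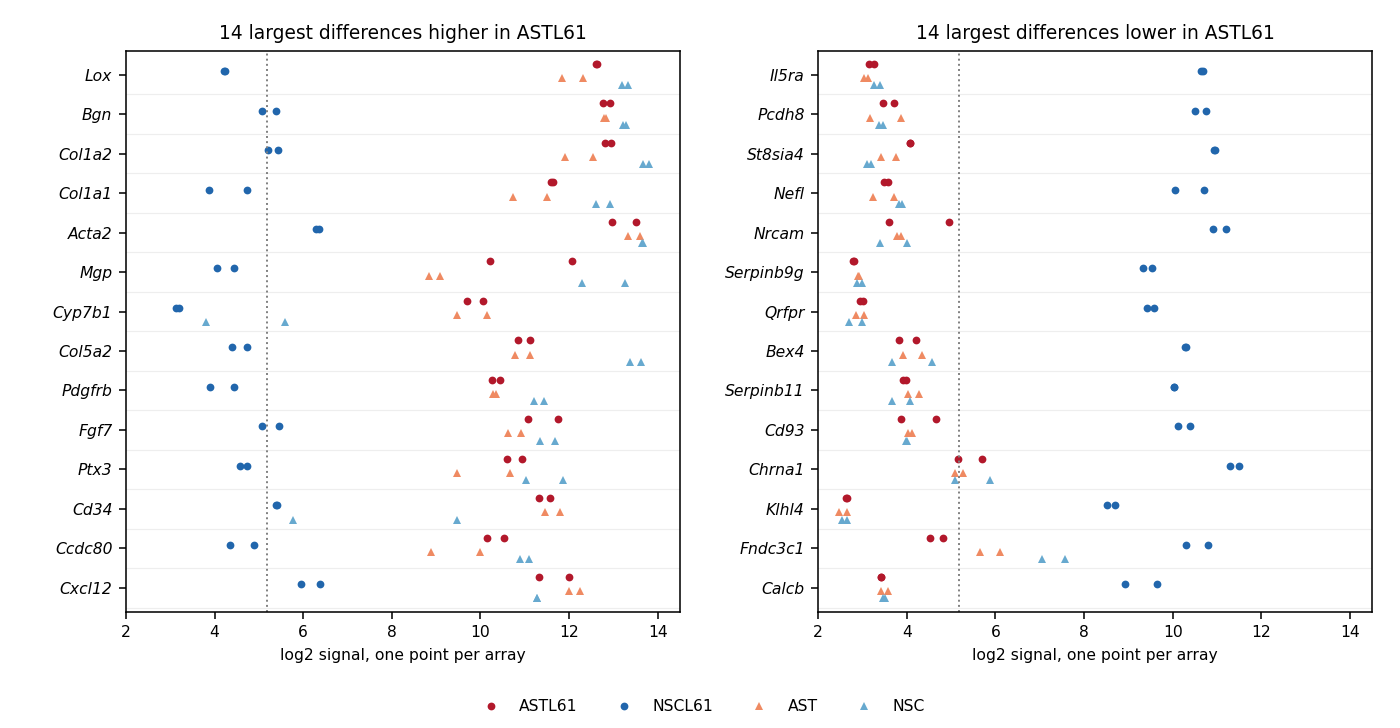
Log2 signal of the 14 genes with the largest differences in each direction, 1 point per array, in ASTL61, NSCL61, AST and the arrays labelled NSC; the dotted line marks the median of all signals, 5.183. The genes were picked for ASTL61 and NSCL61 arrays that do not overlap, so these points stand apart by selection. ASTL61 means differ from AST means by -1.21 to 2.17.

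Lox, which cross-links collagen and elastin, showed the largest difference of all genes named. It read 12.64 and 12.61 in the ASTL61 arrays, against 4.22 and 4.23 in the NSCL61 arrays. The log2 difference was 8.40 ± 0.24 (SE; limma adjusted p = 5.25e-08). Bgn encodes biglycan, a small leucine-rich proteoglycan of the matrix, and read 12.93 and 12.76 in ASTL61, against 5.07 and 5.39 in NSCL61 (7.61 ± 0.15, limma adjusted p = 7.48e-09). For both genes the groups lay far apart, with the ASTL61 arrays near the top of the scale and the NSCL61 arrays near its median or below.

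Of 17 tested collagen chain genes, 13 were higher in ASTL61 and 1 was lower, with a median difference of 2.57 against -0.0036 over all genes tested. Col1a2, a chain of type I collagen, read 12.94 and 12.80 in ASTL61, against 5.21 and 5.43 in NSCL61 (7.55 ± 0.20). Its partner Col1a1 read 11.59 and 11.63, against 4.74 and 3.88 (7.30 ± 0.30), so that the 2 chains of type I collagen differed by a like amount. Col5a2, of the type V collagen that nucleates fibrils, read 11.11 and 10.84 in ASTL61, against 4.39 and 4.72 in NSCL61 (6.42 ± 0.18), and Col8a1 differed by 3.22 ± 0.30. The exception was Col18a1, the basement membrane collagen that carries endostatin, which read 7.998 and 7.05 in ASTL61, against 10.57 and 10.54 in NSCL61 (-3.03 ± 0.63, limma adjusted p = 0.00544). Without any 1 of the 4 line arrays, 10 to 13 chains were higher and 1 was lower.

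Enzymes and chaperones that mature collagen followed in part, with 8 of 16 higher and 1 lower. Loxl1, an elastin cross-linker, read 9.52 and 9.02 in ASTL61, against 4.13 and 4.33 in NSCL61 (5.04 ± 0.18). The procollagen protease enhancer Pcolce differed by 1.82 ± 0.16 and the collagen chaperone Serpinh1 by 0.98 ± 0.17. The single lower gene was Plod2, a lysyl hydroxylase, at -0.60 (limma adjusted p = 0.0467). Its call was lost without ASTL61 replicate 2, NSCL61 replicate 1 or NSCL61 replicate 2, with median centring, with no filter, with averaged probe sets and with the 4 line arrays alone. Among 27 proteoglycans and glycoproteins, 11 were higher and 4 were lower. Mgp, matrix Gla protein and an inhibitor of calcification, read 10.21 and 12.07 in ASTL61, against 4.44 and 4.04 in NSCL61 (6.90 ± 0.54), and its 2 ASTL61 arrays differed by more than 1 log2 unit. Fbln5, fibulin-5 of elastic fibres, differed by 3.90 ± 0.28 and Ogn, a small leucine-rich proteoglycan, by 3.65 ± 0.32. The 4 lower members were Nid2, Fbln1, Thbs2 and Fbn2, with differences from -2.33 to -1.65. Fbn2 and Thbs2 lost the call without ASTL61 replicate 1, NSCL61 replicate 1 or NSCL61 replicate 2, which left 2 of the list lower.

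Matrix proteases and their inhibitors were higher in 5 of 16 and lower in 0. Timp3, a matrix-bound inhibitor of metalloproteinases, read 11.17 and 11.73 in ASTL61, against 6.59 and 6.53 in NSCL61 (4.89 ± 0.30). Mmp14, the membrane-type metalloproteinase that activates pro-MMP2, differed by 3.13 ± 0.29 and its substrate Mmp2 by 2.78 ± 0.38, both higher in ASTL61. Without ASTL61 replicate 2, 2 members of the list were lower. In a list of integrins, which are receptors for the matrix, and laminins, themselves matrix proteins, 2 of 20 genes were higher and 7 were lower. Itgb8, a receptor subunit that activates latent TGF-β, read 8.93 and 8.69 in ASTL61, against 4.08 and 4.76 in NSCL61 (4.39 ± 0.31). Itga6, the laminin receptor subunit of stem cells, read 9.03 and 9.55, against 11.27 and 11.17 (-1.93 ± 0.19), and Itga4 and the laminin chain Lama4 were lower, at -2.62 ± 0.24 and -2.73 ± 0.26.

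Contractile genes of smooth muscle were higher in 10 of 15 and lower in 0. Acta2, smooth muscle α-actin, read 13.51 and 12.97 in ASTL61, against 6.29 and 6.36 in NSCL61 (6.91 ± 0.52, limma adjusted p = 1.84e-05). The actin-binding protein gene Tagln read 11.47 and 10.28, against 5.81 and 5.77 (5.09 ± 0.38), and the myosin light chain gene Myl9 read 10.68 and 8.96, against 4.64 and 5.14 (4.93 ± 0.56). In all 3, replicate 1 was the higher ASTL61 array. Flna, the actin cross-linker filamin A, differed by 1.13 ± 0.15. Without any 1 line array, 7 to 11 members were higher.

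Promoters are shown for contractile and collagen genes that were higher together in ASTL61, and for a pair of genes from the lower side. The windows are from RefSeq (GRCm38.p6), the first listed for each gene, and run from 250 bases before to 50 after the annotated start, 5′ to 3′. Capitals mark matches, on either strand, to the AP-1 motif TGANTCA, the TEAD motif GGAATG, the CCAAT box, the ETS motif CCGGAAG or the TATA box TATAAA. They also mark the CArG box bound by serum response factor, searched as CCWWWWWWGG with W for A or T. Only exact matches were marked and counted. Sites 1 base off that CArG pattern, such as ccctatatgg and ccttgtttgg in Acta2, stay in lower case and out of the counts. Acta2 lies at chr19:34255324-34255623 (minus strand), Myl9 at chr2:156775214-156775513 (plus), Col1a2 at chr6:4505368-4505667 (plus), Il5ra at chr6:106748988-106749287 (minus) and Chrna1 at chr2:73580289-73580588 (minus).
Acta2: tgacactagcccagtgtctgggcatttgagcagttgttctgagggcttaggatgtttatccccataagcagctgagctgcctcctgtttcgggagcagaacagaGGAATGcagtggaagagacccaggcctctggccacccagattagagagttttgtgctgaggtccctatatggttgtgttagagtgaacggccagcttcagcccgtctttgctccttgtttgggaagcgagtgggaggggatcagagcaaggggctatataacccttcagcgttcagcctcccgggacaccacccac
Myl9: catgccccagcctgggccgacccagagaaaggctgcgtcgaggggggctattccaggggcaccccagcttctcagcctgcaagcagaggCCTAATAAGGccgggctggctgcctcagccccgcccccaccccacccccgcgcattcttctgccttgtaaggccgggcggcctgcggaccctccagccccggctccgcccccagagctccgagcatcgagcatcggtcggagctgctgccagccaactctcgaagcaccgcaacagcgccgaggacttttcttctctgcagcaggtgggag
Col1a2: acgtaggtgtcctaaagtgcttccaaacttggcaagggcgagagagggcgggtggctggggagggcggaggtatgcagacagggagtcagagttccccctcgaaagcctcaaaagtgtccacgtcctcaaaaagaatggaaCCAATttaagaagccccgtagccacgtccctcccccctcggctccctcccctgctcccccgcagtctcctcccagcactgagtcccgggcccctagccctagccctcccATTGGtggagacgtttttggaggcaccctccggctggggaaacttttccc
Il5ra: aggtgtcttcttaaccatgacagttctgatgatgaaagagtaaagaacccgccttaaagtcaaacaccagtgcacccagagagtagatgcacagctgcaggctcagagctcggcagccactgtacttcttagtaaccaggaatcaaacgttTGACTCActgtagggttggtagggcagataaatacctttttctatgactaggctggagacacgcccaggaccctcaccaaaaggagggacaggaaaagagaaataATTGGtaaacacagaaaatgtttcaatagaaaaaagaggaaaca
Chrna1: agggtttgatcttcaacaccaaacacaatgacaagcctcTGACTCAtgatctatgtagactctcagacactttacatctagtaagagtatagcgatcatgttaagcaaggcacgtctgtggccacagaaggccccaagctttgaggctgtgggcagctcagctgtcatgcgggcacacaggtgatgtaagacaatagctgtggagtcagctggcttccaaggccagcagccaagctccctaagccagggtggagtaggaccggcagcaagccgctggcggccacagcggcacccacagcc
Acta2 carried a TEAD match at -146, Myl9 a CArG match at -161 and Col1a2 CCAAT matches at -109 and 1, counted from the start as 1. On the other side, Il5ra carried an AP-1 match at -99 with a CCAAT match at 7, and Chrna1 an AP-1 match at -211. Matches were counted in the 10294 tested genes with a listed promoter. The CArG box occurred in 3.71% of 566 promoters of genes at least 2-fold higher in ASTL61, in 0.963% of 727 promoters of genes at least 2-fold lower and in 1.35% of all. Of 13 smooth muscle promoters, 3 had a CArG match and 7 a TEAD match, which 11.9% of all promoters had. The TEAD motif was in 81 of the 566 promoters on the higher side and in 94 of the 727 on the lower side. The AP-1 motif was in 6.36% on the higher side, 8.12% on the lower side and 4.90% of all. The ETS motif was in 6.71%, 7.98% and 17.4% in the same order, the CCAAT box in 36.6%, 38.2% and 38.6%, and the TATA box in 9.89%, 9.49% and 7.40%. These shares describe letters in windows and were not tested.

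YAP and its partner TEAD drive genes of spreading, contractile cells. Of 16 such target and pathway genes, 8 were higher in ASTL61 and 1, Axl, was lower. Ccn2, a matricellular protein also called connective tissue growth factor, read 10.89 and 11.51 in ASTL61, against 8.62 and 8.94 in NSCL61 (2.42 ± 0.25). Ajuba, an adaptor that binds LATS kinases, differed by 2.16 ± 0.19, Ccn1 by 1.84 ± 0.26 and the caveolar coat gene Cav1 by 1.68 ± 0.22. Axl lost its call without any 1 of the 4 line arrays, with either replicate block and with averaged probe sets. The number higher was 5 without NSCL61 replicate 1 or NSCL61 replicate 2, 6 without ASTL61 replicate 1 and 7 without ASTL61 replicate 2.

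In the TGF-β and BMP pathway 12 of 23 genes were higher and 2 were lower. Tgfb2, a ligand, read 9.28 and 8.14 in ASTL61, against 5.32 and 5.29 in NSCL61 (3.41 ± 0.41). The inhibitory Smad gene Smad6 differed by 3.38 ± 0.44 and the ligand gene Bmp6 by 2.54 ± 0.26. The 2 lower genes were the ligand Bmp2, at 4.37 and 5.61 against 8.28 and 7.69 (-2.999 ± 0.51), and the pseudoreceptor Bambi (-1.10 ± 0.12). BMP ligands thus differed in opposite directions.

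Transcription factors and cadherins of mesenchymal cells gave 7 higher and 3 lower among 16. Cdh11, cadherin-11 of mesenchymal cells, read 10.09 and 10.10 in ASTL61, against 6.65 and 6.401 in NSCL61 (3.57 ± 0.52). The homeobox genes Prrx2 and Prrx1 differed by 1.68 ± 0.26 and 1.47 ± 0.19. Cdh1, E-cadherin, read 2.78 and 3.00 in ASTL61, against 6.82 and 6.49 in NSCL61 (-3.77 ± 0.18), and Twist2 and Cdh2, the neural N-cadherin, were the other lower genes. Without NSCL61 replicate 1 the single lower member was Cdh1, and Twist2 also lost its call without ASTL61 replicate 1 or NSCL61 replicate 2. Vim, the filament vimentin, read 13.56 and 13.61 in ASTL61 and 13.70 and 13.70 in NSCL61 and did not pass. Fibroblast and pericyte markers were higher in 7 of 11 and lower in 1, Lamc3, with Tbx18 and Foxd1, transcription factors of pericytes and stroma, at 3.45 ± 0.38 and 2.57 ± 0.36. Thy1, at 4.92 and 4.45 in ASTL61 and 4.03 and 4.14 in NSCL61, passed (0.60 ± 0.19, limma adjusted p = 0.0348) at levels below the array median. That call was lost without ASTL61 replicate 1, NSCL61 replicate 1 or NSCL61 replicate 2 and with the 4 line arrays alone (limma adjusted p up to 0.218).

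Growth factors and receptors of the PDGF, FGF and VEGF families were higher in 12 of 23 and lower in 3. Pdgfrb, the PDGF receptor of pericytes and fibroblasts, read 10.44 and 10.27 in ASTL61, against 3.89 and 4.45 in NSCL61 (6.19 ± 0.21). Fgf7, a growth factor secreted by stroma for epithelial cells, read 11.08 and 11.76, against 5.46 and 5.08 (6.15 ± 0.25). The ligand Pdgfc differed by 3.37 ± 0.28 and the lymphatic growth factor Vegfc by 2.42 ± 0.18. The lower members were Fgf5, at 3.21 and 3.30 in ASTL61 and 8.14 and 7.80 in NSCL61 (-4.72 ± 0.51), Pdgfd and the VEGF receptor Kdr, whose call was lost without ASTL61 replicate 1, NSCL61 replicate 1 or NSCL61 replicate 2. Among 9 EGF receptors and ligands, Erbb2 was higher by 1.09 ± 0.16 and the ligand gene Btc was lower (-1.61 ± 0.44, limma adjusted p = 0.0197), and Btc did not pass without ASTL61 replicate 1, NSCL61 replicate 1 or NSCL61 replicate 2, or with the 4 line arrays alone. Egfr read 7.23 and 7.22 in ASTL61, against 7.38 and 7.11 in NSCL61, and did not pass (limma adjusted p = 0.942). The called share of the EGF list was 22.2%, under the 32.7% of all genes tested.

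Insulin-like growth factors act through receptors whose access to ligand is set by binding proteins. In that family 4 of 13 were higher and 5 were lower. Igfbp7 read 10.41 and 10.24 in ASTL61, against 6.26 and 6.15 in NSCL61 (4.12 ± 0.35). Other Igfbp7 probe sets differed by only 1.20 and 0.0028. Igfbp5 read 3.37 and 3.72, against 8.97 and 7.81 (-4.84 ± 0.53), and Igfbp3 read 8.51 and 9.30, against 12.29 and 12.06 (-3.27 ± 0.28). The other Igfbp5 probe set differed by only -0.43, with means of 6.45 in ASTL61 and 6.87 in NSCL61. By the probe sets used, the binding proteins therefore differed in opposite directions. The clearance receptor Igf2r was lower, at -1.59 ± 0.20. Without ASTL61 replicate 2, NSCL61 replicate 1 or NSCL61 replicate 2, 2 members were higher.

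Cytokines, chemokines and their receptors had 16 of 26 higher and 6 lower. Cxcl12, the ligand of Cxcr4, read 12.004 and 11.33 in ASTL61, against 5.94 and 6.39 in NSCL61 (5.50 ± 0.29, limma adjusted p = 1.95e-06). Cxcr4 itself read 3.81 and 3.63 in ASTL61, against 9.43 and 9.17 in NSCL61 (-5.58 ± 0.26, limma adjusted p = 1.08e-06). Ligand and receptor thus stood on opposite sides, Cxcl12 higher in ASTL61 and Cxcr4 higher in NSCL61. Cxcl5, a neutrophil-attracting chemokine, read 8.65 and 7.87 in ASTL61, against 3.00 and 2.86 in NSCL61 (5.33 ± 0.25). The macrophage growth factor Csf1 read 11.69 and 11.84, against 7.55 and 7.69 (4.15 ± 0.26). Without NSCL61 replicate 2, 8 of the list were higher and 5 were lower. Ackr3, lower in ASTL61, lost its call without ASTL61 replicate 1 or NSCL61 replicate 1. The pattern recognition protein Ptx3 read 10.94 and 10.60 in ASTL61, against 4.57 and 4.74 in NSCL61 (6.12 ± 0.47).

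Further genes on the higher side had other roles. Cyp7b1, an oxysterol hydroxylase, read 10.05 and 9.70 in ASTL61, against 3.14 and 3.20 in NSCL61 (6.71 ± 0.47). Cd34, a sialomucin of vascular, stromal and blood progenitor cells, read 11.58 and 11.33, against 5.40 and 5.39 (6.06 ± 0.92). Ccdc80, a secreted matrix protein, read 10.15 and 10.54, against 4.88 and 4.34 (5.74 ± 0.33). These 3 genes were picked for their large differences, and in each the arrays of the 2 lines lay at least 4 log2 units apart. Of the defining endothelial markers, Pecam1 and Cdh5 stayed at or under 4.04 in all 4 line arrays. Kdr, the other such marker, read 5.99 and 6.25 in ASTL61 and 7.04 and 6.95 in NSCL61.

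Il5ra, the α chain of the interleukin-5 receptor and known from eosinophils and B cells, was the gene lower in ASTL61 by the most. It read 3.27 and 3.14 in ASTL61, against 10.63 and 10.68 in NSCL61 (-7.45 ± 0.17, limma adjusted p = 1.34e-08). Its signal was 5.05 and 5.59 in OPCL61 and at most 3.40 in the AST arrays and the arrays labelled NSC. Of the 14 genes lower in ASTL61 by the most, 13 averaged under the array median in ASTL61, so the size of these differences may be a lower bound. Adjusted p ran from 7.48e-09 to 2.03e-05 over the 14.

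The neural adhesion molecules Pcdh8 and Nrcam and the polysialyltransferase St8sia4 were among those 14. Pcdh8, a protocadherin that lowers cell adhesion in neural tissue, read 3.46 and 3.71 in ASTL61, against 10.75 and 10.51 in NSCL61 (-7.05 ± 0.28). St8sia4, the enzyme that puts polysialic acid on NCAM, read 4.08 and 4.08, against 10.94 and 10.96 (-6.87 ± 0.39). Nrcam, a cell adhesion molecule of axons and nodes, read 3.60 and 4.95, against 11.21 and 10.92 (-6.79 ± 0.48). All 3 were near background in ASTL61 and well expressed in NSCL61. By list, 0 of 15 neural adhesion molecules and polysialyltransferases were higher and 4 were lower, the other 2 being Nfasc (-0.64) and Ntm (-0.58), which lost its call without any 1 of the 4 line arrays. The lower members were 26.7% of that list, against 16.6% of all genes tested. Among 13 protocadherins and cadherins of neural cells 2 were higher and 5 were lower, with Pcdh17 at -4.36 ± 0.31, Cdh6 at -4.73 ± 0.57 and, in the other direction, Pcdh18 at 2.09 ± 0.20. Without ASTL61 replicate 1, NSCL61 replicate 1 or NSCL61 replicate 2, 3 of these 13 were lower.

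Neuronal genes also lay mostly on the lower side, 9 of 18 against 3 higher, with a median difference of -1.04. Nefl, the neurofilament light chain, read 3.48 and 3.57 in ASTL61, against 10.72 and 10.05 in NSCL61 (-6.86 ± 0.23). Gap43, of growing axons, read 6.28 and 7.45, against 11.15 and 11.26 (-4.34 ± 0.38), and Crmp1, which shapes axonal microtubules, differed by -4.09 ± 0.32. Map2, Tubb3 and Dpysl3, cytoskeletal genes of neurons, were the 3 higher in ASTL61, at 2.67, 2.27 and 1.59. Dcx, a marker of young neurons, stayed at or under 4.19 in the 4 line arrays. Small X-linked Bex genes, named for expression in brain, were lower together, with Bex4 at 4.21 and 3.82 in ASTL61, against 10.29 and 10.30 in NSCL61 (-6.28 ± 0.27), Bex1 at -5.60 ± 0.93 and Bex2 at -4.07 ± 0.21.

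The remaining large differences on the lower side came from varied families. Serpinb9g and Serpinb11, of the clade B serine protease inhibitors, read 2.78 and 2.81 and 3.98 and 3.91 in ASTL61, against 9.33 and 9.53 and 10.02 and 10.04 in NSCL61. Qrfpr, a G protein-coupled receptor for a peptide of the RFamide family, read 2.95 and 3.00 in ASTL61, against 9.42 and 9.57 in NSCL61 (-6.52 ± 0.13). Chrna1, a subunit of the muscle acetylcholine receptor, read 5.15 and 5.70, against 11.51 and 11.30 (-5.98 ± 0.28). All 4 genes were high in both NSCL61 arrays, and in ASTL61 all but Chrna1 read under the array median on both arrays. Cd93, a C-type lectin-like receptor of endothelial and myeloid cells, Klhl4, Fndc3c1 and Calcb, a calcitonin gene-related peptide, were lower, at -5.99 ± 0.46, -5.98 ± 0.42, -5.87 ± 0.29 and -5.87 ± 0.45.

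Feedback and output genes of the ERK pathway were lower in 9 of 19 and higher in 1, with a median difference of -0.94. Spry4, a Sprouty protein that restrains Ras signalling, read 4.55 and 5.76 in ASTL61, against 10.29 and 10.09 in NSCL61 (-5.03 ± 0.39, limma adjusted p = 2.06e-05). Dusp6, a phosphatase specific for ERK, read 7.62 and 8.90, against 11.09 and 11.23 (-2.90 ± 0.41). Spred1 and Spred2, inhibitors that act on Raf activation, read 9.51 and 9.66, and 9.06 and 9.09, in ASTL61, against 10.96 and 11.10, and 10.68 and 10.37, in NSCL61. These 4 genes were among the 9 lower members. The other lower members were Dusp4, Spred3, Dusp5, Hmga2 and Ccnd1, from -2.39 to -0.90, and Myc was the higher one at 0.62. The count depended on single arrays, being 12 without ASTL61 replicate 2 and 5 without NSCL61 replicate 1. Ccnd1 and Dusp4 lost the call without NSCL61 replicate 1, Dusp5 and Hmga2 without that array, ASTL61 replicate 1 or NSCL61 replicate 2, and Myc without ASTL61 replicate 2 or either NSCL61 array. Dusp5 also lost it with either replicate block, and Dusp5 and Myc with the 4 line arrays alone. Where the ASTL61 arrays lay over 1 log2 unit apart, as for Spry4, Dusp6, Dusp4, Dusp5 and Hmga2, replicate 2 was the higher one. HRas itself was not analysed here, so the level of the introduced gene in the lines is not given.

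Neural stem and progenitor genes were higher in 0 of 16 and lower in 4. Prom1 read 3.82 and 4.24 in ASTL61, against 9.08 and 8.89 in NSCL61 (-4.95 ± 0.28, limma adjusted p = 3.30e-06). Fut4, which makes the stem cell antigen SSEA-1, read 4.05 and 4.39, against 7.30 and 7.29 (-3.07 ± 0.17). Fabp7, of radial glia, and Sox3 were lower, at -1.57 ± 0.49 and -0.45 ± 0.11. Fabp7 lost its call without any 1 of the 4 line arrays (limma adjusted p up to 0.184). Sox3 lost its call without ASTL61 replicate 1 or NSCL61 replicate 2 and with averaged probe sets, its second probe set differing by 0.0539 in the other direction. Sox2 did not pass (-1.40 ± 0.57, limma adjusted p = 0.0908), and neither did Nes, at 8.77 and 8.39 in ASTL61 and 8.93 and 8.79 in NSCL61. Without ASTL61 replicate 1 or NSCL61 replicate 2, 2 of the list were lower. The 16.6% of all genes that were lower is the background for these 4 of 16.

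Astrocyte markers gave no common direction, with 3 of 19 higher and 3 lower, a called share of 31.6% against 32.7% of all genes tested. Nfix, a nuclear factor I gene of glial differentiation, read 11.96 and 11.57 in ASTL61, against 8.40 and 8.71 in NSCL61 (3.21 ± 0.28), and Nfib differed by 0.91 ± 0.19. Acsbg1, a lipid enzyme of astrocytes, read 5.78 and 5.98, against 8.24 and 7.86 (-2.17 ± 0.26), and Aldoc, astrocytic aldolase C, was lower, at -1.79 ± 0.35. Gfap did not pass (-0.16 ± 0.42, limma adjusted p = 0.811). Without NSCL61 replicate 1 a single marker was higher, Nfib being among those that lost the call. Genes of the oligodendrocyte lineage were higher in 1 of 17 and lower in 3, a called share of 23.5%, under the 32.7% of all genes tested. Ugt8a, which makes the myelin lipid galactosylceramide, read 3.22 and 2.80 in ASTL61, against 6.82 and 6.84 in NSCL61 (-3.82 ± 0.46), and Pdgfra was higher by 1.95 ± 0.44. Ptprz1 and Cnp were lower, at -1.33 ± 0.31 and -0.66 ± 0.21, Cnp losing its call without any 1 of the 4 line arrays or with averaged probe sets and Ptprz1 without ASTL61 replicate 1 or NSCL61 replicate 2. Olig2 read at most 2.89 in the 4 line arrays and 12.31 and 12.24 in OPC. Without ASTL61 replicate 1 or NSCL61 replicate 2 a single lineage gene was lower.

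Regional factors of the telencephalon were higher in 2 of 13, Dlx1 (1.96 ± 0.28) and Nr2f1 (1.68 ± 0.24), and lower in 1, Pou3f3 (-0.80 ± 0.23), whose call was lost without ASTL61 replicate 2, NSCL61 replicate 1 or NSCL61 replicate 2. The called share of these factors was 23.1%, under the 32.7% of all genes tested. Of the microglial markers, Aif1 stayed at or under 3.73 and Tyrobp at or under 4.28 in the 4 line arrays. Csf1r lay above the array median, at 6.19 and 6.19 in ASTL61 and 6.12 and 6.20 in NSCL61. Cd68, a lysosomal protein, was lower, at -1.31 ± 0.39. The Cd68 call was lost without ASTL61 replicate 1 or NSCL61 replicate 1 and with the 4 line arrays alone. Y-linked probe sets did not exceed 4.15 on any of the 12 arrays. Xist, the RNA that silences an X chromosome, read 7.19 and 7.73 in ASTL61, against 10.19 and 10.59 in NSCL61 (-2.93 ± 0.23, limma adjusted p = 2.13e-05), with 8.34 and 8.39 in AST.

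In the Wnt pathway 4 of 17 were higher and 3 were lower. The ligand gene Wnt7b read 6.58 and 6.48 in ASTL61, against 10.37 and 10.23 in NSCL61 (-3.77 ± 0.13), and the receptor gene Fzd2 read 9.58 and 8.94, against 6.91 and 6.96 (2.32 ± 0.26). The secreted antagonist gene Dkk2 was lower, at -4.60 ± 0.69, while Dkk3 was higher by 0.92 ± 0.14. In the Notch pathway 1 of 13 was higher, the glycosyltransferase Lfng, and 2 were lower, the target Nrarp (-1.09 ± 0.16) and the ligand Dll1 (-1.86 ± 0.62, limma adjusted p = 0.0455). Dll1 lost its call without any 1 of the 4 line arrays, with no filter and with the replicate block, and Lfng lost its call without NSCL61 replicate 1. The called share of the Notch list was 23.1%, under the 32.7% of all genes tested. Guidance cues gave 6 higher and 4 lower among 20. Slit2, a repellent, read 10.02 and 11.12, against 7.19 and 7.25 (3.36 ± 0.47), Sema3c was higher by 3.18 ± 0.32, and Sema3e was lower, at 6.39 and 6.11 against 10.06 and 10.23 (-3.89 ± 0.25).

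Prostaglandin genes were higher in 2 of 9 and lower in 2. Pla2g4a, the phospholipase that frees arachidonic acid, read 10.31 and 10.49 in ASTL61, against 7.77 and 7.43 in NSCL61 (2.80 ± 0.17). Ptgis, prostacyclin synthase, differed by 2.38 ± 0.21, whereas the prostaglandin F receptor Ptgfr and the prostaglandin E synthase Ptges were lower, at -2.46 ± 0.21 and -1.38 ± 0.33, Ptges losing its call without ASTL61 replicate 1 or NSCL61 replicate 1. Ptgs2, cyclooxygenase-2, read 11.47 and 12.47, against 12.57 and 12.50, and did not pass (-0.57 ± 0.30, limma adjusted p = 0.181), though it did without ASTL61 replicate 2 (-1.07, limma adjusted p = 0.0121). Interferon-related genes split evenly, 3 of 15 each way, a called share of 40% against 32.7% of all genes tested. Gbp2 and Irf1 were higher by 3.89 ± 0.51 and 1.88 ± 0.16, and Ifit3, at 5.25 and 5.26 in ASTL61 and 8.16 and 7.66 in NSCL61, was lower, at -2.65 ± 0.17, while 1 of the 15 was lower without ASTL61 replicate 1 or NSCL61 replicate 1. S100 proteins and annexins had 2 of 15 each way, a called share of 26.7%, under the 32.7% of all genes tested. S100a4, a calcium-binding protein of motile cells, read 13.02 and 13.15, against 10.26 and 10.10 (2.90 ± 0.44).

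Cell cycle genes did not share a direction that held across arrays. Of 27, 5 were higher and 2 were lower, below the 32.7% of all genes. Ccnd2, cyclin D2, read 11.17 and 10.92 in ASTL61, against 9.31 and 9.25 in NSCL61 (1.77 ± 0.33), and Mcm5 and Ccna2 were higher by 0.90 ± 0.20 and 0.83 ± 0.19. Mki67, a proliferation marker, read 10.52 and 9.62, against 9.92 and 9.98 (0.12 ± 0.24, limma adjusted p = 0.747), so the 2 ASTL61 arrays lay on either side of NSCL61. Its difference was 0.57 without ASTL61 replicate 2 and -0.33 without ASTL61 replicate 1. The counts were 9 higher and 0 lower without ASTL61 replicate 2, 2 and 2 without ASTL61 replicate 1, and 1 and 0 without NSCL61 replicate 1, where Mcm5 and Ccna2 lost the call, as Ccna2 did without ASTL61 replicate 1. The CDK inhibitors were higher in 2 of 7 and lower in 3. Cdkn2c read 9.45 and 9.53 in ASTL61, against 7.83 and 7.75 in NSCL61 (1.70 ± 0.11), Cdkn1b was the other higher gene, and Cdkn1c, Cdkn1a and Cdkn2b were lower, at -1.77 ± 0.33, -1.77 ± 0.44 and -0.93 ± 0.18. Cdkn1a lost its call without NSCL61 replicate 1 and with the 4 line arrays alone, and Cdkn1b without ASTL61 replicate 1, NSCL61 replicate 1 or NSCL61 replicate 2. Cdkn2a read 9.03 and 9.36, against 9.23 and 9.91, and did not pass (limma adjusted p = 0.263).

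Hypoxia and glycolysis genes were higher in 1 of 16 and lower in 6. Adm, the vasodilator adrenomedullin, read 5.08 and 5.21 in ASTL61, against 8.81 and 9.004 in NSCL61 (-3.76 ± 0.14). Egln3, an oxygen-sensing hydroxylase, was lower, at -2.97 ± 0.54 and hexokinase 1 (Hk1) by -0.93 ± 0.18, while Ndrg1 was higher by 1.49 ± 0.40. Without ASTL61 replicate 2, NSCL61 replicate 1 or NSCL61 replicate 2, 3 of the list were lower and Ndrg1 lost its call. Cholesterol synthesis genes were lower in 2 of 14, Dhcr7 (-1.502 ± 0.25) and Msmo1 (-0.87 ± 0.29), and higher in 0. The Msmo1 call was lost without any 1 of the 4 line arrays, with no filter and with averaged probe sets.

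**Figure D2:**
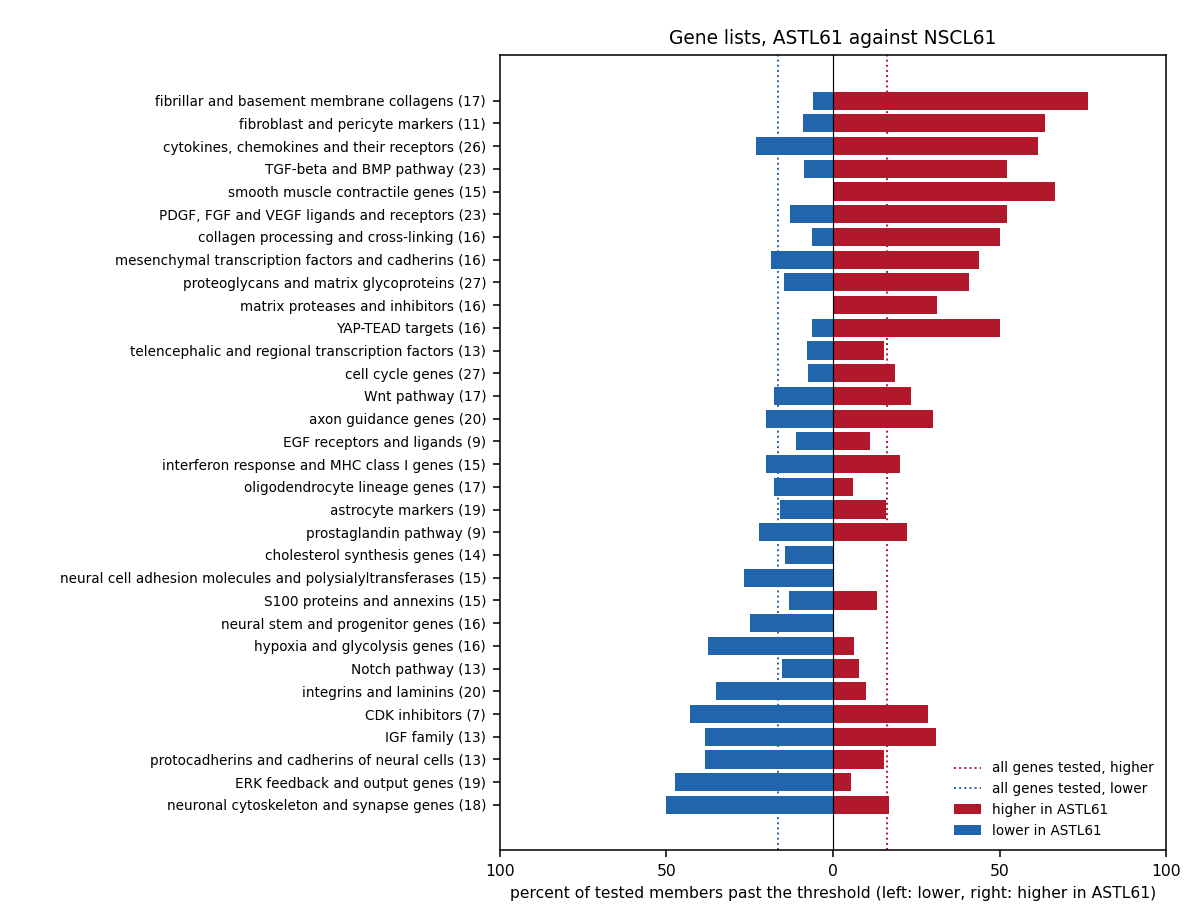
Share of the tested members of each gene list past the adjusted p threshold, higher in ASTL61 to the right and lower to the left, with the number tested in brackets and lists ordered by median difference; lists with under 5 tested members are left out. Dotted lines give the shares over all genes, 16.1% higher and 16.6% lower.

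Whether the lines differed as their parents did was asked by setting ASTL61 minus NSCL61 beside AST minus NSC, which share no array. AST and the arrays labelled NSC differed in 3896 genes (30.5%). Of the 4182 genes called between the lines, 1662 were called between the parents, which is 39.7% of the line calls and 42.7% of the parental calls. The direction was the same for 1140 of these and opposite for 522. The other 2520 line calls were not called between the parents, and over all genes tested the 2 differences correlated at a Pearson r of 0.0998, a description across genes of cells that share a source.

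**Figure D3:**
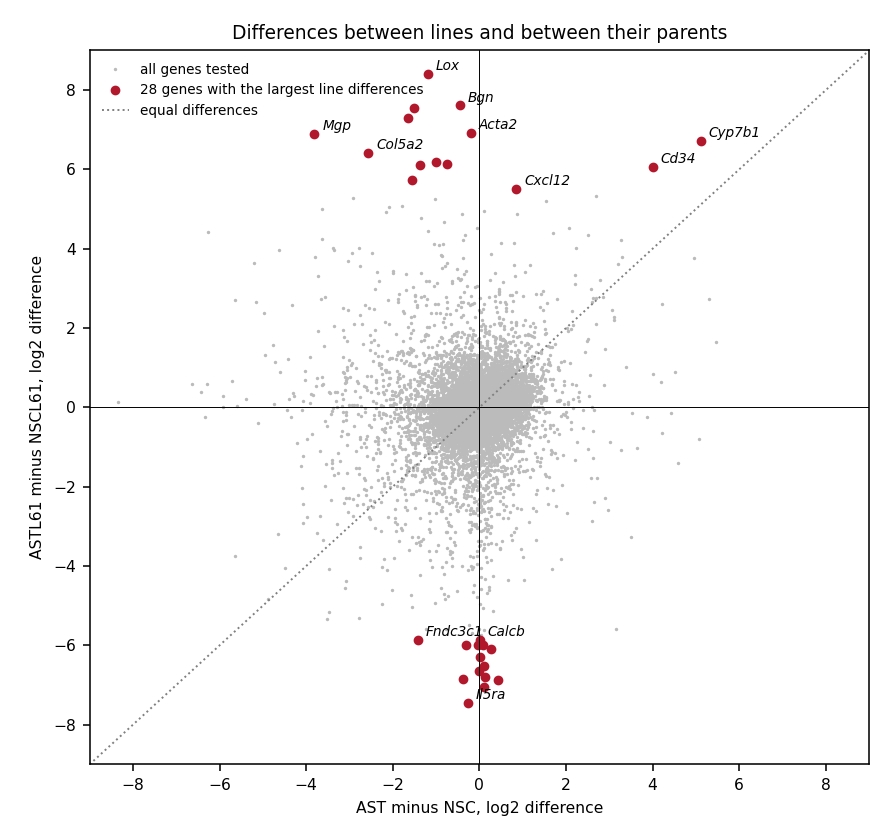
Log2 difference between the lines (vertical) against that between their parents (horizontal) for all genes tested, with the 28 genes of largest line difference in red; the dotted diagonal marks equal differences. Most matrix genes lie high and left of 0, the neural genes low and near 0, and Cyp7b1 and Cd34 near the diagonal.

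The 14 genes higher in ASTL61 by the most fell into separate patterns in the parents. Cyp7b1 and Cd34 were also higher in AST, by 5.11 ± 0.47 and 4.01 ± 0.92. The opposite held for 8 of the 14, which were lower in AST than in the arrays labelled NSC. Mgp, for instance, read 9.09 and 8.84 in AST, against 13.26 and 12.29 in the arrays labelled NSC. The last 4, Bgn, Acta2, Ptx3 and Cxcl12, did not pass between the parents. Of the 14 genes lower in ASTL61 by the most, 13 did not pass between the parents, and Fndc3c1 was lower in AST.

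The test of the difference between the 2 contrasts passed for 3236 genes (25.3%), 1584 higher and 1652 lower. Mgp led with 10.71 ± 0.76 (limma adjusted p = 1.95e-05). Efemp1, fibulin-3 of the matrix, followed with 10.70 ± 0.63, reading 7.48 and 7.36 in ASTL61, 3.09 and 2.88 in NSCL61, 5.98 and 4.12 in AST, and 11.33 and 11.30 in the arrays labelled NSC. Efemp1 was thus higher in ASTL61 than in NSCL61 and lower in AST than in the arrays labelled NSC. On the lower side Bex1 led with -8.76 ± 1.32, at 8.02 and 7.62 in ASTL61, 13.38 and 13.45 in NSCL61, 7.64 and 9.50 in AST, and 7.16 and 3.66 in the arrays labelled NSC. By the probe set used, Igfbp5 differed by much the same in lines and parents, -4.84 and -4.87, though its other probe set differed by only -0.43 between the lines. Sox2 was higher in AST than in the arrays labelled NSC (4.59 ± 0.57). Because the contrast of parents rests on the arrays labelled NSC and their fibroblast genes, its part in these differences was not tested.

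The 2 ASTL61 arrays differed by more than 1 log2 unit in 268 genes, and those of NSCL61 in 17. The number was 410 for OPCL61, 372 for the arrays labelled NSC, 94 for OPC and 87 for AST, so ASTL61 lay inside the range of the 6 groups. ASTL61 replicate 2 was the higher in 180 of the 268. The genes with the largest gaps, chosen after their values were seen, included metalloproteinases and acute-phase genes. Serpinb2, plasminogen activator inhibitor-2, read 3.67 and 10.23 in ASTL61, against 7.86 and 7.54 in NSCL61. Mmp3 read 7.30 and 10.88, Saa3 8.49 and 11.95 and Lcn2 6.52 and 9.94 in ASTL61. With all arrays, neither line passed as higher for Serpinb2, Mmp3 (7.60 and 6.53 in NSCL61) or Mmp13. The Mmp3 difference was 3.82 without ASTL61 replicate 1 and 0.24 without ASTL61 replicate 2. Mmp13 read 4.04 and 7.55 in ASTL61 and 7.88 and 7.04 in NSCL61. Il33 and Cxcl14 showed the same split and passed, Il33 lower (5.67 and 8.84 against 11.72 and 11.92) and Cxcl14 higher (5.66 and 8.62 against 3.69 and 3.41). Il33 did not pass without ASTL61 replicate 1, NSCL61 replicate 1 or NSCL61 replicate 2 (limma adjusted p up to 0.0994). Cxcl14 and Lcn2, which both passed as higher, did not pass without ASTL61 replicate 2, NSCL61 replicate 1 or NSCL61 replicate 2 (limma adjusted p up to 0.0678).

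**Figure D4:**
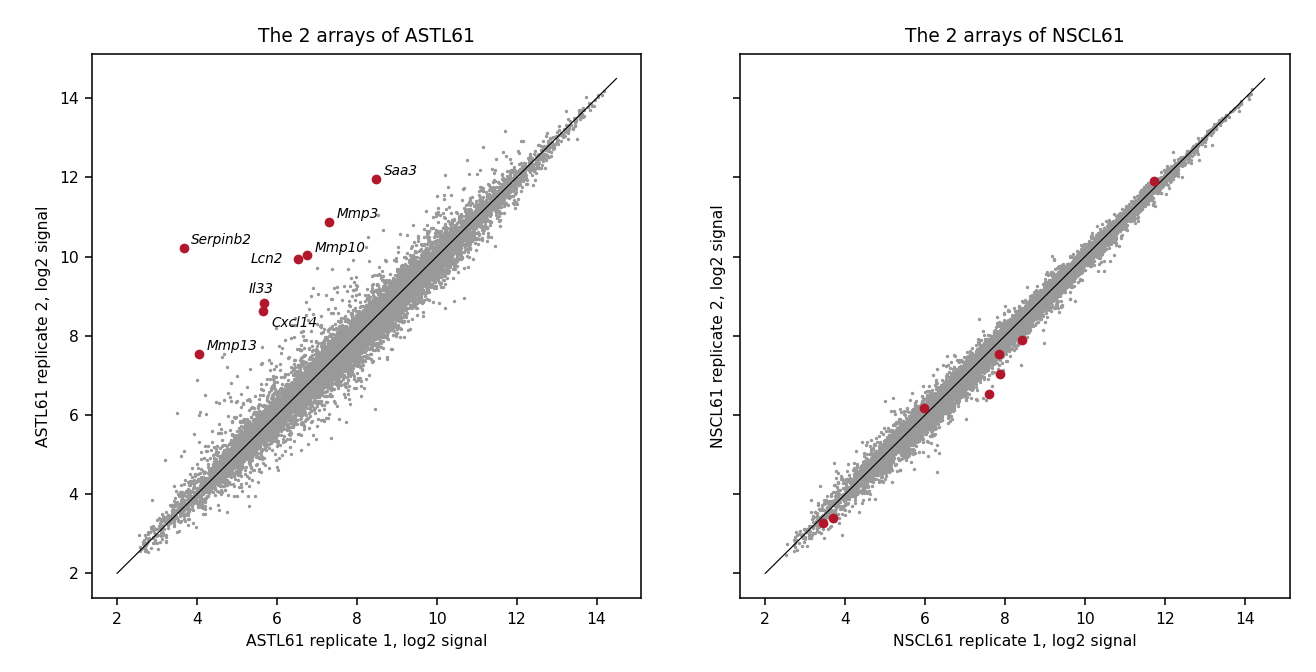
Log2 signal of replicate 2 against replicate 1 for all genes tested, in ASTL61 (left) and NSCL61 (right), with the 8 genes of largest ASTL61 gap in red and the line of equality. ASTL61 points spread to both sides of the line, 180 genes lying over 1 log2 unit above it and 88 below. The largest gap is Serpinb2 at 3.67 and 10.23, while NSCL61 points stay close to the line.

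Differences between the lines were not spread evenly over chromosomes. Among 6519 genes whose mean lay above 7.562, 19.4% were higher in ASTL61, 16.2% were lower and the median difference was 0.0416. On chromosome 14 the median was 0.375, with 44.3% of 219 genes higher and 4.11% lower. On chromosome 7 it was -0.231, with 6.58% of 395 genes higher and 29.9% lower. Over all genes tested the medians were smaller, 0.2035 on chromosome 14 (32.6% of 420 genes higher, 8.10% lower) and -0.1305 on chromosome 7 (6.72% of 982 genes higher, 24.4% lower). Among the brighter genes, chromosomes 13 and 15 had medians of 0.271 and 0.294, and chromosomes 1 and 9 had -0.199 and -0.190. Without any 1 of the 4 line arrays the chromosome 14 median lay between 0.288 and 0.457 and that of chromosome 7 between -0.243 and -0.189.

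The same medians were then taken in the other contrasts, which share arrays with this one. For chromosome 14 the median of NSCL61 minus NSC was -0.554, that of ASTL61 minus AST 0.0466 and that of AST minus NSC -0.205. For ASTL61 minus AST the medians of all 20 chromosomes stayed between -0.0865 and 0.0537. Line and parental medians lay close together on some chromosomes, such as chromosome 1 (-0.199 and -0.204) and chromosome 13 (0.271 and 0.339). They lay apart on others, such as chromosome 7 (-0.231 and -0.0108), chromosome 12 (0.0372 and 0.327), chromosome 4 (0.0877 and 0.269) and chromosome 6 (-0.0107 and 0.166). Genes on 1 chromosome are not independent replicates, and these medians carry no test. Nefl, Nefm, Pcdh8 and Pcdh17, all lower in ASTL61, lie on chromosome 14 against its general direction.

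**Figure D5:**
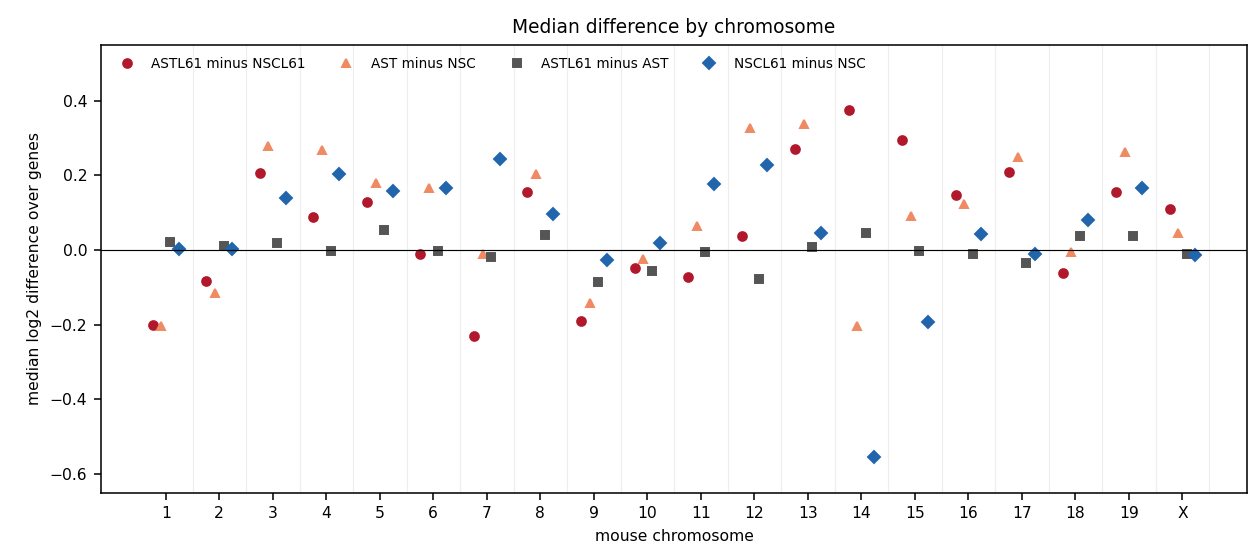
Median log2 difference of genes with a mean above 7.562, by mouse chromosome, for 4 contrasts marked by shape and colour. ASTL61 minus AST stays near 0 throughout, whereas NSCL61 minus NSC reaches -0.554 and ASTL61 minus NSCL61 0.375 on chromosome 14.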

How the data were processed

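Per the labels' protocols, 5 µg of total RNA was labelled with biotin in a one-cycle in vitro transcription and hybridised to Affymetrix arrays. The authors deposited log2 signals for 45101 probe sets, 64 of them controls. How background was corrected and probes were summarised and normalised is not given in the sources used here, which limits what the levels can be compared with. No counts underlie the values, so the number of arrays, 2 in each of 6 groups, limits the precision.

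Of 34958 probe sets with a single symbol, 1 per gene was kept, the brightest on average. Symbols came from the platform's annotation, and 34754 were found by Entrez identifier in RefSeq genes of GRCm38.p6. A gene was tested where at least 1 group mean exceeded the median of all values, 5.183. The 6 group means were fitted with limma 3.58.1 (R 4.3.3), with 9.30 total degrees of freedom after moderation. The p-values, from 2-sided tests, were adjusted over 12788 genes by the Benjamini-Hochberg method, with a threshold of 0.05. The fit was tested on simulated data. Errors are moderated SE.

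The comparison, the 35 gene lists and the genes were chosen with earlier results of these data known. Genes named are the 14 largest differences each way past the threshold with arrays that do not overlap, the 5 largest each way for the difference of contrasts, up to 4 list members past the threshold with the smallest p, the given markers Lox, Bgn, Il5ra, Nefl and Spry4, and a short fixed set (Sox2, Gfap, Olig2, Nes, Vim, Ptgs2, Mki67, Cdkn2a, Col1a1, Thy1 among them). Any other gene was named after its values were seen, or to check a label.

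The alternatives were quantile normalisation, median centring, no filter, a filter at 7.562, averaging the probe sets of a gene, blocking on the replicate number, array weights, a robust prior with a trend, only the arrays compared, a 2-fold minimum and leaving out each array.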

Additional observations from a re-analysis of the deposited data

Results flagged for a closer look

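The difference between the lines and that between their labelled parents were unequal, by a limma test of (ASTL61 minus NSCL61) minus (AST minus NSC), in 3236 of 12788 genes (adjusted p under 0.05). Among the genes named, the difference was 10.71 for Mgp, 10.70 for Efemp1, 9.58 for Lox, 9.05 for Col1a2, 8.98 for Col5a2 and 8.05 for Bgn. It was -8.76 for Bex1, -7.31 for St8sia4, -7.20 for Il5ra, -7.15 for Pcdh8, -6.91 for Nrcam, -6.47 for Nefl and -3.48 for Spry4. The matrix genes were high in the arrays labelled NSC and low in NSCL61, as Lox shows with 13.19 and 13.34 in the arrays labelled NSC.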

How the results depend on the processing

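At a minimum of 2-fold the line contrast kept 1691 genes, the parental contrast 1327 and the difference of contrasts 2051. Leaving out 1 array gave 2422 to 3392, 2117 to 3021 and 2012 to 2985 genes for the same 3, the fewest for the lines without NSCL61 replicate 1 (2422), then without NSCL61 replicate 2 (2654). The counts stayed within 1.5 times under every other alternative. Deviations of same-numbered ASTL61 and NSCL61 arrays correlated at -0.19 and those of AST and NSC at 0.105. With 2 arrays a group, each pair of groups gives only 1 such coefficient. Whether same-numbered arrays were handled together cannot be decided from it. A replicate block gave 4119, 3816 and 3159 genes, and a crossed block, added after seeing the data, gave 4139 for the lines.

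For 184 named genes under 14 alternatives, 2427 of 2555 values kept direction and side of the threshold, 116 lost the call, 5 gained it and 7 changed sign, while all 221 values of 13 genes in the difference of contrasts kept both. The sign changes were Aqp4 with the mean of probe sets (0.0405) and without 1 ASTL61 array (-0.1964 to 0.0144), S100b with the mean of probe sets (-0.0172), and, without 1 array, Egfr (-0.1548 to 0.1121, positive without NSCL61 replicate 1), Mki67 (-0.33 to 0.5739), Mmp13 (-3.4168 to 0.0865) and Serpinb2 (-4.0306 to 2.533), the first value of Mki67 and the second of the other 2 being those without ASTL61 replicate 1. None of these passed in the comparison of all arrays, and the cause was not tested. Sox2 passed with array weights (limma adjusted p = 0.0397) and with the 4 line arrays alone (limma adjusted p = 0.00342). List counts of 3 or fewer often moved by 1 or 2 without 1 array. Signals under 5.183 may be background, on the dim side of 12.9% of higher and 19.4% of lower calls, and such differences may be lower bounds.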
